A study of Fukomys damarensis and Heterocephalus glaber and Mus musculus with 160 samples.

Results

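The liver-only active enhancers of the naked mole-rat (Heterocephalus glaber) were 33221 regions of the HetGla_1.0 genome build that carried the chromatin marks of an active enhancer in liver and overlapped no heart consensus region of the 3 measured marks. They made up 39.9% of the 83346 liver H3K27ac consensus regions, out of 148270 H3K27ac consensus regions in liver and heart together. A consensus region of a tissue and mark was built from peaks that overlapped a peak of another animal by at least 50% of the shorter one, and the same overlap decided every later step. Each member overlapped a liver H3K4me1 consensus region, no liver H3K4me3 consensus region, and no heart consensus region of H3K27ac, H3K4me1 or H3K4me3. The members were thus chosen by the presence and absence of these histone peaks, so the histone values are given as a description with no test, except for H3K27ac lists left out of the choice.

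Enhancers are stretches of DNA away from promoters where transcription factors bind and raise the transcription of a gene. Acetylation of histone H3 at lysine 27 (H3K27ac) marks active enhancers and promoters, H3K4me1 marks enhancers in an active or primed state, and H3K4me3 marks promoters. In hepatocytes, CEBPA is a leucine zipper factor of metabolic genes, FOXA1 is a pioneer factor that can bind closed chromatin, HNF4A is a nuclear receptor central to hepatocyte identity, and RXRA is the shared dimer partner of many nuclear receptors, including those that sense fatty acids and bile acids.

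Chromatin immunoprecipitation with sequencing was done on whole liver and heart of wild-type adult male naked mole-rats aged 13 to 17 months, with no treatment named in the labels. The replicate was the animal. Liver lists of each histone mark came from 5 animals (NMR30, NMR31, NMR32, NMR34 and NMR35), heart lists from 3 animals for H3K27ac, 3 for H3K4me1 and 4 for H3K4me3, and liver factor lists from NMR30 and NMR35 for each of CEBPA, FOXA1, HNF4A and RXRA. The 33 lists held 25868 to 253457 peaks each, read depth is unknown, and whole tissue mixes hepatocytes with other cell types, so a mark in fewer cells and less of it per cell cannot be told apart. The defining genes of liver cells were not checked, because no gene annotation of this build was used here, and no region is assigned to a gene.

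Most active enhancers of the liver were absent from the heart consensus. Of the 46928 liver regions with H3K27ac and H3K4me1 but no H3K4me3, 70.8% were liver-only. The other 13707 (29.2%) overlapped a heart region and are called shared active enhancers here. Of all 46928, 23.8% overlapped heart H3K27ac, 18.1% heart H3K4me1 and 1.40% heart H3K4me3. In the opposite direction, heart H3K27ac regions with heart H3K4me1, without heart H3K4me3 and with no liver region of any mark numbered 5958 (heart-only active enhancers). Liver H3K4me1 regions with neither of the other marks in liver and no heart region numbered 50075 (liver-only primed enhancers). The 2 tissues were not measured alike. H3K27ac and H3K4me1 lists came from 5 livers but 3 hearts. The H3K4me1 consensus held 119058 regions in liver and 39297 in heart, and the H3K27ac consensus 83346 and 64924. The part of this in the liver-only share and in the sizes of the sets was not tested.

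The line between liver-only and shared was sharp for most regions. No base of a heart region lay in 32219 of the members, and 1002 touched one by less than 50%. Between 40% and 50% there were 255 members, and between 50% and 60% there were 354 excluded enhancers. The members nearest to the line were JH166401.1:407434-408321, with 49.9% overlap and a mean H3K27ac fold enrichment of 6.49, and JH169464.1:975120-976459, with 49.9% and 6.32. On the other side were JH167805.1:1092019-1093586, at 50% overlap and a fold of 9.50, and JH168066.1:955177-955510, at 50% and 6.08.

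Liver-only active enhancers were short. Their median width was 604 bases, with the middle 50% between 396 and 1020 bases, and the whole range ran from 169 to 18829 bases. Together they covered 28.6 Mb. Shared active enhancers had a median width of 728 bases, heart-only active enhancers 865.5 bases and liver-only primed enhancers 660 bases, the primed ones measured on H3K4me1. Regions over 2000 bases made up 7.25% of the liver-only set and 14.1% of the shared set.

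H3K27ac at the members was present in most, but not all, of the 5 livers. The H3K27ac list of NMR30 had a peak at 69.5% of the members, that of NMR31 at 81.6%, that of NMR32 at 71.2%, that of NMR34 at 61.0% and that of NMR35 at 81.0%, a mean of 72.8% ± 8.62 (SD, n = 5). NMR34 was the lowest, and NMR31 and NMR35 were close to each other at the top. All 5 H3K27ac lists had a peak at 12524 members (37.7%), and only 2 lists did at 9281 (27.9%). The fold enrichment, the authors' ratio of signal over background at the peak, had a median at the members of 6.91, 6.14, 6.54, 6.04 and 6.38 in the same order of animals. The mean of these medians was 6.40 ± 0.343 (SD, n = 5), against 6.73 ± 0.316 at shared active enhancers, and the median was higher at the shared enhancers in each of the 5 animals. Averaged over the lists with a peak, the fold of single members had a median of 6.04, with 4.45 at the 10th percentile, 11.6 at the 90th and 76.3 at the most.

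H3K4me1 was found at the members more evenly. Its lists had a peak at 75.2% of members in NMR30, 80.2% in NMR31, 83.8% in NMR32, 88.7% in NMR34 and 84.2% in NMR35. NMR34, lowest for H3K27ac, was highest for H3K4me1. The median H3K4me1 fold at the members was 6.76 ± 0.379 (SD, n = 5), against 7.55 ± 0.393 at shared active enhancers. Single H3K4me1 regions often spanned more than the acetylated stretch: 62.7% of members were covered whole, and 5101 of the 28563 H3K4me1 regions that held a member held more than 1. All 10 liver lists of the 2 marks had a peak at 9433 members (28.4%), and 7061 members (21.3%) had them all and no peak in any single heart list.

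**Figure D1:**
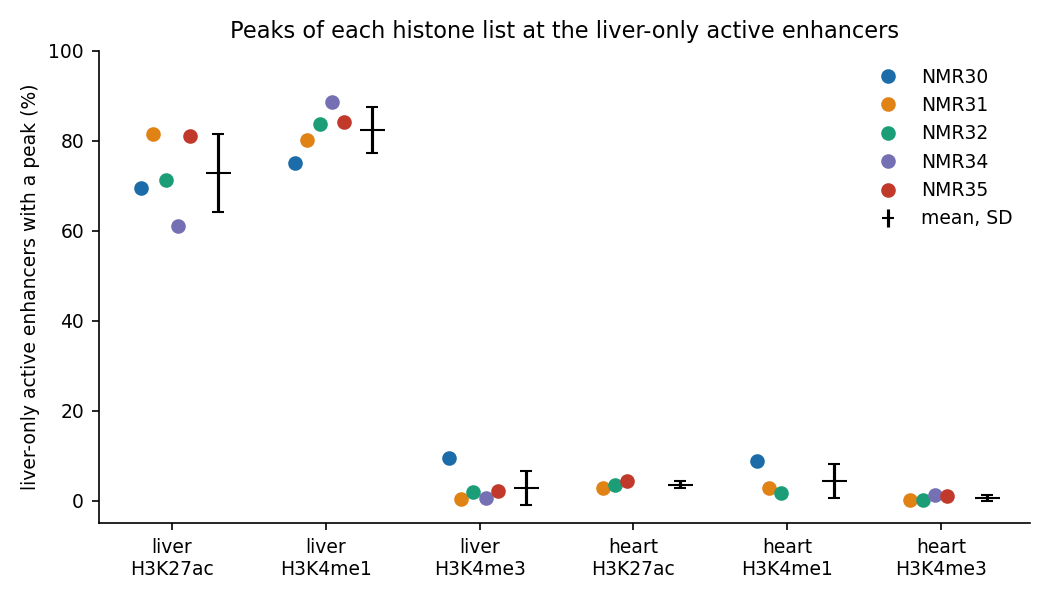
Share of the 33221 liver-only active enhancers (%, vertical axis) with a peak in each animal's histone list, by tissue and mark, with 1 point per animal and the mean with its SD beside them. The 10 liver H3K27ac and H3K4me1 lists lie between 61.0% and 88.7%, and the lists of the marks that the selection excluded lie at or below 9.48%, with NMR30 the highest for liver H3K4me3 and for heart H3K4me1.

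Peaks outside the consensus remained at some members. Liver H3K4me3 peaks lay at 9.48% of members in NMR30, whose list is by far the longest with 253457 peaks, and at 0.367%, 1.83%, 0.590% and 2.16% in NMR31, NMR32, NMR34 and NMR35. NMR30 stood apart from the other 4 animals, and its list held 71.7% of the 4112 members with a peak in exactly 1 H3K4me3 list. Without that list the rule gave 33318 members. In heart, the H3K27ac lists had a peak at 2.81% (NMR31), 3.40% (NMR32) and 4.32% (NMR35) of members. The heart H3K4me1 lists had one at 8.79% (NMR30), 2.92% (NMR31) and 1.68% (NMR32), and the longest list, of NMR30, again had the highest share. Altogether 6495 members (19.6%) had a peak in at least 1 heart list and 26726 had none.

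Liver H3K27ac was also measured in lists that took no part in choosing the regions. The members were chosen again without all liver lists of 1 animal, and the left-out animal's own H3K27ac list was then read at them. Heart lists of that animal, where it had any, stayed in the rule. It had a peak at 66.3% of the regions in NMR30, 77.6% in NMR31, 67.9% in NMR32, 58.6% in NMR34 and 76.9% in NMR35, a mean of 69.4% ± 7.96 (SD, n = 5). Shared active enhancers chosen the same way had a mean of 74.3% ± 8.52. The share was lower at liver-only enhancers in 5 of 5 animals, by 4.85 ± 3.38 percentage points (difference −4.85, two-sided exact sign-flip permutation test, p = 0.062, adjusted p = 0.0879 over 5 tests). The smallest p that 5 animals allow is 0.062, so the test could not pass a threshold of 0.05. The liver-only regions chosen this way were narrower in each animal, with median widths of 575 to 637 bases against 685 to 760. The part of width in the difference was not tested.

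The members lay close to each other along the scaffolds. The median distance from a member to the nearest other member was 555 bases, 54.5% had a neighbour within 1 kb and 80.1% within 12.5 kb. The lower quartile of this distance was 152 bases, and regions on either side of such short gaps were counted as separate members. Within 12.5 kb of another region of their own set lay 72.9% of shared active, 68.4% of liver-only primed and 51.8% of heart-only active enhancers. The median distance was 1210 bases in the shared set, with a lower quartile of 172 bases, and 4388 bases in the primed set. Within 1 kb lay 47.5% of shared and 29.8% of primed enhancers. These sets differ in number, and the primed set is built from another mark; the part of either in the spacing was not tested. Members chained at gaps of at most 12.5 kb formed 7665 clusters of at least 2 and left 6616 members alone. There were 1484 clusters of 5 or more members, which held 32.01% of all members, and 209 of 10 or more. Clusters of 5 or more held a similar share of shared active enhancers, 30.9%, with 103 clusters of 10 or more. They held 21.4% of primed and 10.6% of heart-only active enhancers.

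**Figure D2:**
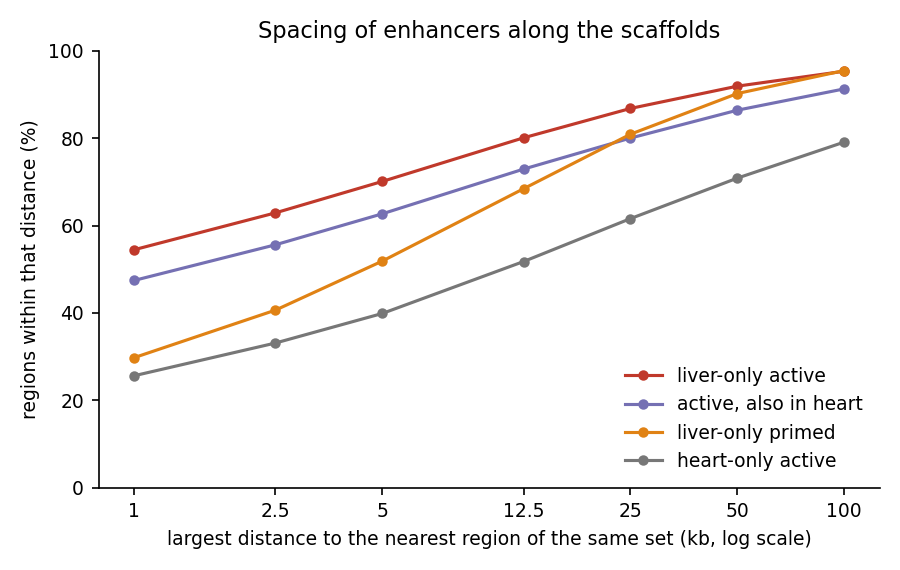
Share of regions (%, vertical axis) whose nearest region of the same set lies within a given distance (kb, log scale), for the 4 sets of enhancers. The curve of liver-only active enhancers starts at 54.5% within 1 kb, where shared active enhancers are at 47.5% and primed enhancers at 29.8%. The primed curve reaches the liver-only active curve at 100 kb.

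The cluster with the most members spanned 118115 bases at JH165689.1:145758-263872 and held 38. They had a median width of 656.5 bases and a median H3K27ac fold of 6.14, near the 6.04 of all members. Its strongest member, at 157465 to 157998, reached a fold of 21.6, and 13 of the 38 had a peak in all 5 H3K27ac lists. The second cluster, JH166727.1:7661-135124, held 35 members, and 9 liver H3K4me3 and 13 heart consensus regions lay between them. The next, JH166931.1:1072704-1160545, held 34 members and no H3K4me3 region, no heart region and no shared enhancer, and none of its 34 members had a peak in a single heart list. At least 1 factor peak lay at 15 of 38, 15 of 35 and 7 of 34 members of these clusters, against 46.4% of all members.

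Members were farther from promoter marks than the shared enhancers were. The nearest liver H3K4me3 consensus region was at a median of 19009 bases from a member, at 14189 bases from a shared active enhancer and at 26862 bases from a liver-only primed one. Within 1 kb of H3K4me3 lay 6.24% of members and 10.2% of shared enhancers. The rule excluded overlap with H3K4me3 from all 3 sets, and these distances come from the same lists, so they are a description.

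The factor lists took no part in choosing the members. CEBPA was the most frequent of the 4 factors at the members. Its peaks lay at 26.8% of members in NMR30 and 21.4% in NMR35. FOXA1 peaks lay at 8.19% and 14.6%, RXRA peaks at 6.77% and 12.3%, and HNF4A peaks at 2.21% and 8.99% in the same order of animals. Wilson 95% intervals of these shares reached at most 0.476 percentage points to either side and cover the counting of regions only. The difference between the 2 animals was larger than that for every factor, with NMR35 higher for FOXA1, HNF4A and RXRA and NMR30 higher for CEBPA. List lengths differed too, from 26218 peaks for RXRA in NMR30 to 122941 for CEBPA in NMR30. With the same number of strongest peaks taken from each list, CEBPA stayed the most frequent, at 18.3% and 15.9% of members in NMR30 and NMR35. FOXA1 was then at 6.55% and 12.9%, RXRA at 6.77% and 8.86%, and HNF4A at 1.63% and 6.04%, so RXRA passed FOXA1 in NMR30.

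**Figure D3:**
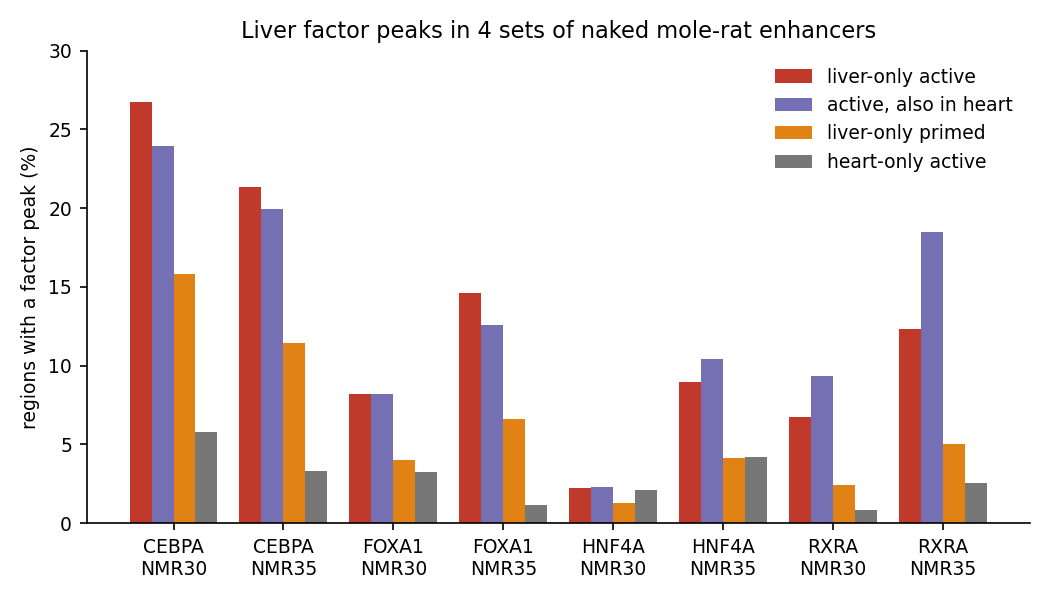
Share of regions (%, vertical axis) with a peak of each factor list, 1 bar per set of enhancers, for the 8 factor lists of NMR30 and NMR35. Liver-only active enhancers are above liver-only primed and heart-only active enhancers in all 8 lists, from 2.21% against 1.26% and 2.11% for HNF4A in NMR30 to 26.8% against 15.8% and 5.81% for CEBPA in NMR30.

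At least 1 factor had a peak in either animal at 46.4% of members, against a background of 44.4% of all 83346 liver H3K27ac consensus regions, promoters included. In both animals, CEBPA was found at 15.8% of members (5256 regions) and 14.7% of all liver H3K27ac regions, and FOXA1 at 5.74% (1907) and 5.41%. HNF4A was found in both animals at 1.25% of members (416) and 2.26% of all regions, and RXRA at 4.01% (1333) and 6.49%. The CEBPA and FOXA1 shares were thus close to the background, and those of the 2 nuclear receptors were below it, with no test made of these differences. Of the members with CEBPA in NMR35, 74.0% also had it in NMR30. For HNF4A the same share was 13.9%, with peaks at 735 members in NMR30 and 2988 in NMR35. In the other direction the 2 factors were close. Of the members with CEBPA in NMR30, 59.1% also had it in NMR35, and for HNF4A this share was 56.6%.

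Liver factors were found more often at the active enhancers of liver than at primed ones. The share with a factor peak was higher at members than at liver-only primed enhancers in 8 of 8 lists, by 6.31 ± 3.34 percentage points (SD over 8 lists; two-sided exact sign-flip permutation test, p = 0.00781, adjusted p = 0.0195). The widest gaps were those of CEBPA, 26.8% against 15.8% in NMR30 and 21.4% against 11.4% in NMR35. RXRA showed the largest ratio in these lists, 6.77% against 2.45% and 12.3% against 5.05%. The 8 lists come from 2 animals, so the p-value covers the spread over factors and animals together; with the factors averaged within each animal the difference was 6.31 and the exact p was 0.5, the smallest that 2 animals allow. Leaving out any 1 factor left 6 lists, with the members higher in 6 of 6. The exact permutation test then gave p = 0.03125, the smallest that 6 lists allow, and an adjusted p of 0.0781. The size of the difference followed the overlap rule, at 12.8 points when 1 shared base was enough and 1.14 points, in 7 of 8 lists, when 50% of the longer region had to overlap.

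Against shared active enhancers there was no common direction. The difference, liver-only minus shared, averaged −0.502 ± 2.90 percentage points over the 8 lists, with 4 lists above 0 (two-sided exact sign-flip permutation test, p = 0.719, adjusted p = 0.719). The factors went different ways. CEBPA was higher at liver-only enhancers, by 2.78 points in NMR30 and 1.44 in NMR35. FOXA1 was at 8.19% in both sets in NMR30 and higher by 2.04 points in NMR35. HNF4A differed by −0.0856 and −1.42 points, and RXRA by −2.60 and −6.17, so RXRA peaks lay at 9.37% and 18.5% of shared enhancers. Shared enhancers are wider, and per megabase of region CEBPA, FOXA1 and HNF4A were each higher at liver-only enhancers in both animals. RXRA stayed lower on that scale, with 81.1 against 92.6 peaks per Mb in NMR30 and 150 against 188 in NMR35, and the mean over the lists turned to 21.4 peaks per Mb.

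The heart-only active enhancers, which have no liver consensus mark by their definition, had lower shares than the members in all 8 lists, with no test made of this. They had CEBPA at 5.81% and 3.34%, FOXA1 at 3.22% and 1.17%, and RXRA at 0.806% and 2.55% in NMR30 and NMR35. The HNF4A list of NMR30 had the closest values, 2.11% of heart-only and 2.21% of liver-only active enhancers. Without it, the difference from primed enhancers was 7.08 points over 7 lists.

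Factor peaks went with the H3K27ac fold among the members. The members were split into 4 groups of equal size by their mean H3K27ac fold, with median folds of 4.57, 5.52, 6.72 and 10.5 from the weakest to the strongest. CEBPA in NMR30 had a peak at 14.3%, 19.1%, 25.7% and 48.0% of them, and at least 1 factor in either animal at 27.1%, 36.1%, 47.8% and 74.7%. The strongest group was above the weakest in 8 of 8 lists, by 20.1 ± 9.91 percentage points (SD over 8 lists; two-sided exact sign-flip permutation test, p = 0.00781, adjusted p = 0.0195). Averaged within the 2 animals the difference was 20.1 with an exact p of 0.5. Width rose over the 4 groups as well, with medians of 375, 496, 693 and 1375 bases. So did the share of members with a peak in all 5 H3K27ac lists, at 4.20%, 16.0%, 42.1% and 88.5%. The part of this share in the difference between the strongest and the weakest group was not tested. In a fixed window of 500 bases around the strongest H3K27ac summit the difference was 9.40 points, again in 8 of 8 lists. Per megabase it was 39.8 peaks in favour of the strongest group in 7 of 8 lists, and CEBPA in NMR30 was the exception, with 328 peaks per Mb in the strongest and 333 in the weakest group. When 50% of the longer region had to overlap, the difference was −0.0460 ± 0.378 points (SD over 8 lists). That rule keeps a factor peak from counting at a member much wider than itself. The median peak width was 268 to 374 bases over the 8 factor lists, so this setting cannot compare groups of unlike width.

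**Figure D4:**
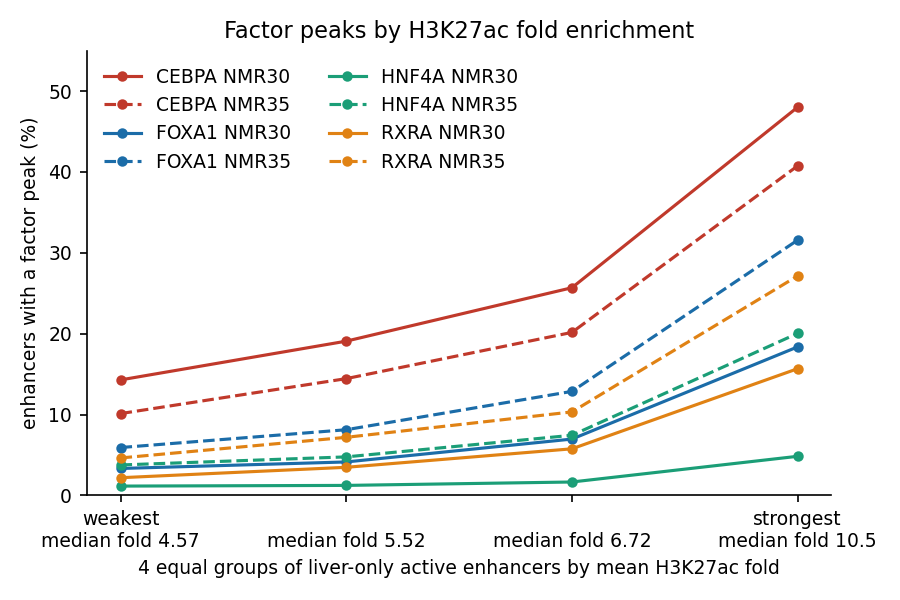
Share of liver-only active enhancers with a factor peak (%, vertical axis) in 4 equal groups by mean H3K27ac fold, weakest to strongest, with 1 line per factor list (solid NMR30, dashed NMR35). All 8 lines end higher than they begin, with CEBPA in NMR30 going from 14.3% to 48.0% and HNF4A in NMR30 from 1.14% to 4.83%.

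The factors were found together. In NMR35, FOXA1 peaks lay at 33.1% of members with a CEBPA peak and at 9.59% of those without, and RXRA peaks at 43.8% of members with HNF4A and 9.20% of those without. In NMR30 the same pairs gave 17.0% against 4.98%, and 33.6% against 6.16%. Counting only factors seen in both animals, 26319 members had 0 factors, 5306 had 1, 1236 had 2, 306 had 3 and 54 had all 4. Median width rose along this series from 552 to 2927.5 bases and the median H3K27ac fold from 5.78 to 17.2. The shares with 1, 2, 3 and 4 factors were 16.0%, 3.72%, 0.921% and 0.163% of members. Of shared active enhancers they were 14.3%, 4.53%, 1.55% and 0.292%. Joint presence was thus not particular to the members, and 2 or more factors were commoner at shared enhancers, with no test made. Wider regions offer more room for any peak, and how much of the joint presence goes with width was not tested.

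Factor summits were densest just outside the edges of the acetylated regions. CEBPA summits of NMR35 had a density of 515 per Mb in the 50 bases just outside a member and 330 per Mb in the 50 bases just inside. Further in, the density fell to 94.3 per Mb at 200 to 300 bases and was higher again, 165 per Mb, at 400 to 500 bases, a depth that only wider members have. It was 44.5 per Mb at 1500 to 2000 bases outside. For NMR30 the highest density of CEBPA, 564 per Mb, was in the same outer 50 bases. RXRA and HNF4A peaked there too in both animals, and FOXA1 at 50 to 100 bases outside, with 207 per Mb in NMR30 and 365 per Mb in NMR35. Within the members that a factor peak overlapped, its summit was at a median of 258 to 297 bases from the strongest H3K27ac summit over the 8 lists.

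**Figure D5:**
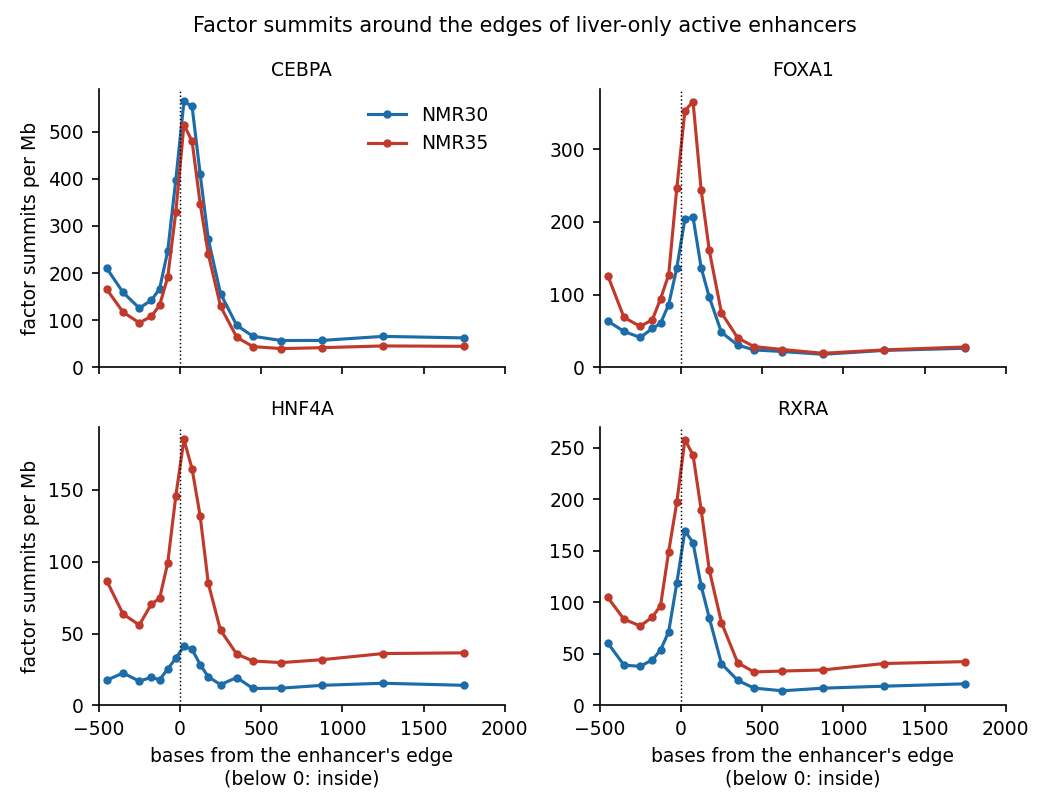
Density of factor summits (per Mb, vertical axis) by distance from the nearest edge of a liver-only active enhancer, with bases inside the enhancer below 0, 1 panel per factor and 1 line per animal. All 8 lines are highest within 100 bases outside the edge, at 564 per Mb for CEBPA and 41.1 per Mb for HNF4A in NMR30.

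Many of those outer summits fell between members. There were 10457 gaps of at most 1 kb between neighbouring members, with a median length of 183 bases. A CEBPA summit lay in 21.7% of these gaps in NMR30 and in 20.0% in NMR35, and a FOXA1 summit in 8.50% and 14.6%. CEBPA summits were at 845 per Mb in the gaps and 252 per Mb inside members in NMR30, and at 780 and 205 per Mb in NMR35. The ratio of gaps to members was between 2.29 (HNF4A in NMR30) and 3.83 (FOXA1 in NMR35) and above 1 in 8 of 8 lists. In the 3836 gaps of that length between shared active enhancers, the ratio was lower, between 1.17 and 2.07. This view was chosen after the overlap values were seen, and it has no test.

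The share of members with a factor peak did not differ between clustered and isolated members past the threshold of the test. Members within 12.5 kb of another had CEBPA peaks at 26.4% and 20.9% in NMR30 and NMR35, and isolated members at 28.2% and 23.1%. The difference over the 8 lists, clustered minus isolated, was −0.769 ± 0.987 percentage points, above 0 in 2 lists (two-sided exact sign-flip permutation test, p = 0.0703, adjusted p = 0.0879). Its sign rested on the overlap rule. When 1 shared base was enough, clustered members were higher in 8 of 8 lists by 2.49 points (exact sign-flip permutation test, adjusted p = 0.0130), and per megabase they were lower in 8 of 8 lists by 35.7 peaks (difference −35.7, exact sign-flip permutation test, adjusted p = 0.0195).

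Seen from the factor lists, 1.57% (HNF4A in NMR30) to 11.6% (FOXA1 in NMR35) of a list's peaks lay in members, and these peaks were stronger than the rest of their list. The median fold of CEBPA peaks was 9.06 in members and 4.47 elsewhere in NMR30, and 8.26 against 4.56 in NMR35. For FOXA1 it was 6.08 against 4.50 and 7.36 against 4.71. At most 33.3% of a list's peaks lay in any liver H3K27ac region, so most peaks elsewhere lay outside acetylated regions. At shared active enhancers the folds were near those at members. The median of the highest CEBPA fold per bound region was 9.89 and 8.80 at members and 8.87 and 7.99 at shared enhancers. For RXRA the shared enhancers were higher, with 5.74 and 6.43 against 5.49 and 6.06. A larger share of the RXRA and HNF4A peaks lay at liver regions with both H3K27ac and H3K4me3 than in members. RXRA had 16.5% and 18.8% of the list there and 8.84% and 8.14% in members. HNF4A had 3.51% and 8.50% there and 1.57% and 4.68% in members. CEBPA had 7.13% and 7.93% there and 7.44% and 8.62% in members. FOXA1 had 5.95% and 7.97% there and 5.47% and 11.6% in members. These shares were not scaled to the bases that each set covers, so they do not compare peak density.

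The strongest members with a peak in all 10 liver lists and no heart list are given singly. JH171235.1:706435-709374, 2940 bases wide, had H3K27ac folds of 40.4, 44.0, 87.0, 61.8 and 92.8 in NMR30, NMR31, NMR32, NMR34 and NMR35, a mean of 65.2 ± 24.0 (SD, n = 5). Its H3K4me1 fold was 12.4 ± 4.20 (n = 5), it lay in a cluster of 8 members, and 3 factor lists had a peak in it, with folds of 6.38 for HNF4A in NMR35 and 3.85 and 3.82 for RXRA. The median fold at members was 5.83 for HNF4A in NMR35, and 5.49 and 6.06 for RXRA. JH166605.1:961188-964425 had a mean H3K27ac fold of 54.5 ± 21.1 (SD, n = 5) and lay in a cluster of 15, with CEBPA and FOXA1 peaks in both animals. JH172949.1:714075-725725, 11651 bases wide in a cluster of 23, had folds of 44.9, 49.7, 56.3, 45.6 and 67.4, a mean of 52.8 ± 9.33 with the smallest SD of these 5 regions. All 8 factor lists had a peak in it, led by CEBPA at a fold of 36.3 and RXRA at 35.5 in NMR35. JH167707.1:51686-57085 (47.9 ± 18.3, SD, n = 5) and JH165689.1:297544-305864 (45.8 ± 18.5, SD, n = 5) completed the 5. NMR32 or NMR35 had the highest value in each of them. Peaks of 2 single liver H3K4me3 lists lay at the first, the third and the last of these 5 regions, and of 1 list at JH167707.1:51686-57085, whereas 0.849% of all members had 2 such lists. The last of these lay on the scaffold of the cluster with the most members, beyond its end.

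The members with the strongest factor peaks were chosen from those with a peak in every factor list. Of the 54 members with a peak in all 8 factor lists, the 5 with the highest mean factor fold had values from 94.3 to 181, many times those at the strongest acetylated members. At JH168601.1:62878-63229, 352 bases wide, the factor fold was 432 for HNF4A, 255 for RXRA and 142 for FOXA1 in NMR35, and 12.3 for CEBPA. Its H3K27ac fold was 5.07 ± 0.641 in the 3 animals with a peak (SD, n = 3), and 2 single heart lists had a peak there. JH167377.1:378536-380542 had a mean factor fold of 169 and an H3K27ac fold of 15.1 ± 3.17 (SD, n = 5). JH167218.1:1839-3907, at 112 and an H3K27ac fold of 17.9 ± 11.8 (SD, n = 5), lies on a scaffold whose last peak ends at base 5996. JH171101.1:2850562-2851378 had a mean factor fold of 106, and JH166641.1:1849143-1849536 had 94.3. In all 5, HNF4A of NMR35 was the strongest list and CEBPA was the weakest factor, and a liver H3K4me3 consensus region lay within 2898 bases. In 3 of the 5, H3K27ac had a peak in only 2 or 3 animals at a mean fold between 5.07 and 5.63. The other 2 had a peak in all 5 animals and a mean fold above 11.6, the 90th percentile of members. Single animals were below that value at both, with NMR34 at 11.4 in JH167377.1:378536-380542 and NMR32 at 6.36 in JH167218.1:1839-3907. Input signal and masks of high-signal regions were not analysed here, so what these very high factor folds measure was not tested.

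The widest member, JH169448.1:1575405-1594233, covered 18829 bases. Its H3K27ac folds were 22.1, 30.8, 30.7, 25.7 and 28.0, a mean of 27.4 ± 3.68 (SD, n = 5). In all, 7 factor lists had a peak in it, with CEBPA at 16.5 and 28.0 and FOXA1 at 5.51 and 28.3 in NMR30 and NMR35, and the RXRA list of NMR30 had none. No heart list and 2 single liver H3K4me3 lists had a peak there, and the nearest heart consensus region was 10062 bases away.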

How the data were processed

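Peak lists of 33 naked mole-rat libraries were used: 25 histone lists (15 liver, 10 heart) and 8 liver factor lists. The 83 lists of other species were not used. Peaks were called with MACS2, per the submitters' processing notes; for its version and for the aligner, nothing is given in the sources used here. The authors' caller gave each peak a fold enrichment, a linear ratio, and the deposited −log10 q-value was at least 1.30 in every list. Positions are on HetGla_1.0, per the file names, counted from 1. Factor files name the species only and use the same scaffold names.

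Members and lists of regions were chosen with earlier results of these data known. Overlap meant at least 50% of the shorter region, and a consensus needed 2 animals. A member's fold is the mean, over lists with a peak there, of the highest fold in each. Shares were compared with two-sided exact sign-flip permutation tests over 8 factor lists or 5 animals, adjusted over 5 tests by the Benjamini-Hochberg method at 0.05. Lists with the same animal name come from 1 animal, per the labels, so they are paired by animal. Named regions were the 5 members of highest H3K27ac fold with a peak in all 10 liver and no heart list, the 5 of highest factor fold among those with all 8 factor lists, the widest member, the 3 clusters with most members, and the regions nearest to 50% heart overlap. Planned work on genes and motifs was not analysed here. The code was tested on simulated data. Python 3.11.15, NumPy 2.4.6, SciPy 1.17.1 and Matplotlib 3.10.9 were used.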

Additional observations from a re-analysis of the deposited data

Results flagged for a closer look

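The liver H3K4me3 list of NMR30 had a peak at 9.48% of the liver-only active enhancers, far from the other 4 animals, whose values lay between 0.367% and 2.16%. In heart, the H3K4me3 list of NMR31 had a median fold of 6.51 at the 61 members where it had a peak, apart from the other 3 animals, at 4.09 to 4.43. Of 11 groups of lists examined in this way, chance alone would single out about 1 in 20. The heart H3K4me3 list of NMR31 also had the highest median fold over all its peaks. That median was 22.3, against 11.5 in NMR32, 4.47 in NMR34 and 5.25 in NMR35. The NMR32 value at the members came from only 16 of them.

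The factors differed in direction between liver-only and shared active enhancers in the share of regions with a peak. The mean difference of the 2 animals was 2.11 percentage points for CEBPA, with both animals above 0, and −0.751 for HNF4A and −4.39 for RXRA, with both animals below 0. For FOXA1 it was 1.02, which came from NMR35 alone, since the 2 sets were level in NMR30, at a difference of 0.000718. The HNF4A value of NMR30 was −0.0856, and the direction for HNF4A depended on the scale. Per megabase, HNF4A was higher at liver-only enhancers, by 4.92 peaks in NMR30 and 7.03 in NMR35. In the fixed window around the strongest H3K27ac summit it was higher by 0.516 and 1.15 points. RXRA stayed lower per megabase in both animals. In the window RXRA was level in NMR30 (0.00546) and lower in NMR35 (−2.25). CEBPA stayed higher on these scales in both animals. The difference between the factors was not tested.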

How the results depend on the processing

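The number of members was 14978 when 50% of the longer region had to overlap and stayed within 23656 to 34538 under the other settings (29469 to 32721 without 1 animal). The difference from shared enhancers (−0.502; −1.35 to −0.144 without 1 animal) turned to 3.58 with 1 shared base, 0.433 with 50% of the longer region, 21.4 peaks per Mb, 2.16 in the 500-base window and 0.793 without RXRA; the exact p passed 0.05 under none of these. The difference from primed enhancers no longer passed without CEBPA (4.93), FOXA1 (6.38), HNF4A (7.45) or RXRA (6.49), where 6 lists remained, and was 5.66 to 7.93 without 1 animal; the 4 lists left without NMR30 or NMR35 allow no exact p below 0.125. The strongest minus the weakest fold group was −0.0460 with 50% of the longer region. It no longer passed without CEBPA (16.1), FOXA1 (20.1), HNF4A (23.5) or RXRA (20.8), again with all 6 lists above 0 and the smallest exact p they allow. Without 1 animal it was 17.3 to 24.2. In the replicate block by animal these differences were 6.31 and 20.1 with p = 0.5, the smallest exact p of 2 animals; the block changed no other call (−0.502 and −0.769). Clustered minus isolated (−1.25 to −0.312 without 1 animal) was 2.49 with 1 shared base and passed the threshold at −0.866 with 50% of the longer region, −35.7 peaks per Mb, −0.707 in the window and −0.875 at a cluster gap of 5 kb. The difference in left-out H3K27ac, which could not pass in any setting, was −7.81 to −2.98 under the other settings and −5.33 to −3.76 without 1 animal. Leaving out the HNF4A list of NMR30, chosen after seeing the data, changed no call. Causes were not tested. Read depth is unknown, so a missing peak may be a weak one.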
